A study of Mus musculus with 6 samples.

Results

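The 6 genes described here, Ly6c2, Ly6c1, Ly6a, Ly6e, Ly6i and Ly6d, belong to the Ly6 (lymphocyte antigen 6) cluster on mouse chromosome 15. They were taken by name from the 26012 genes measured and were chosen by name with the fold changes of an earlier look at the same comparison known, so their differences between the groups are given as descriptions without a test. RNA was sequenced from the ventricles of 6 hearts of male C57BL/6 mice, 8 weeks old, collected 4 days after MI (myocardial infarction) by ligation of the left anterior descending (LAD) coronary artery. At the time of ligation, 3 hearts were injected with miR-19a/19b mimic and 3 with control mimic, at 10 μg per heart in both groups. Such a mimic is a double-stranded synthetic oligonucleotide that is loaded and used like the natural miRNA. Every heart had MI and an injection, so the control mimic hearts are infarcted hearts and neither group is an uninjured one, and the tissue holds all the cell types of the ventricle.

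Ly6 proteins are small, mostly GPI-anchored surface proteins that share a disulfide-bonded fold with the urokinase receptor (the Ly6/uPAR fold). The Ly6C antigen, encoded by the near-identical genes Ly6c1 and Ly6c2, marks inflammatory monocytes, which enter an infarct from the blood within the first days after MI, and Ly6c2 is the copy used by monocytes. Ly6c1 is used by endothelial cells, and Ly6a encodes Sca-1, a marker of hematopoietic stem cells that is also carried by endothelial and mesenchymal cells and is raised by interferon. Ly6e is expressed in many tissues and is an interferon-stimulated gene, Ly6i is expressed in myeloid cells, and Ly6d marks early lymphoid progenitors and keratinocytes.

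The mimics copy the mature miRNAs printed here 5′ to 3′, as RefSeq (GRCm38.p6) gives them, with the seed (bases 2 to 8, which pair with a target) in capitals. miR-19a-3p lies at chr14:115044048-115044070 and miR-19b-3p at chr14:115044358-115044380, both on the plus strand. The pair share the seed and differ at a single base, U11C, counted from the 5′ end of miR-19a-3p.
miR-19a-3p: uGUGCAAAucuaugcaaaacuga
miR-19b-3p: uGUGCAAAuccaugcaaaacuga
Matches to this seed (TTTGCAC or TTGCACA, read on the sense strand) were counted in the GENCODE M21 transcripts of the 6 genes. All 6 had 0 matches, both in the longest annotated 3′ UTR and anywhere in their annotated transcripts. Over 17148 genes with a 3′ UTR, 17.9% held a match in it. The longest 3′ UTR had 1192 bases in Ly6e and 300 to 389 bases in the others. The share over all genes was not matched for length, so 0 matches in 6 genes cannot be called unusual. No match means only that these letters are not in these transcripts.

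In the coordinates of the files, which for all 6 genes are those of GRCm38, the genes lie within 349.9 kb of chromosome 15. Ly6d is at chr15:74762056-74763620 on the minus strand, and Ly6e at chr15:74955051-74959905 is the single member on the plus strand. Ly6i (chr15:74979534-74983430), Ly6a (chr15:74994877-74998031), Ly6c1 (chr15:75044018-75048830) and Ly6c2 (chr15:75108158-75111970) follow on the minus strand. The gap between Ly6c1 and Ly6c2 is 59.3 kb and that between Ly6d and Ly6e 191 kb. None of the 6 genes overlaps another annotated gene.

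Ly6c2 and Ly6c1 matter most here, since they are close copies with unlike values. Their coding sequences, each of 393 bases in the APPRIS principal transcript, were 97.7% identical and differed at 9 bases. The first 300 bases of each are printed 5′ to 3′ from GENCODE M21 (GRCm38), with the 7 differing bases of this stretch in capitals.
Ly6c2: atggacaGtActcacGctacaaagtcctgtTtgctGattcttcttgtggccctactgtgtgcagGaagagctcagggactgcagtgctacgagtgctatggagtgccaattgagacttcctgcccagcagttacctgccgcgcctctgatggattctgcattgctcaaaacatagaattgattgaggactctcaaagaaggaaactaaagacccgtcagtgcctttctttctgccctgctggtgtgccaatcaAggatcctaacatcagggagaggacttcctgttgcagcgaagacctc
Ly6c1: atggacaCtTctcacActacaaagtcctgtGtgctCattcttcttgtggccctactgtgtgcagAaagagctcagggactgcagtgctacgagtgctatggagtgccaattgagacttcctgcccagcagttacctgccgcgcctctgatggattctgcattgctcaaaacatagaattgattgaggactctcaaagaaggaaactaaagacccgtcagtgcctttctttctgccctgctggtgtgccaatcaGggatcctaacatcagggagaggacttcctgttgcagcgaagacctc
The longest stretch without a difference ran over 188 coding bases. Ly6a was 81.8% identical to Ly6c1 and 81.6% to Ly6c2, and Ly6i stood nearest to Ly6a, at 86.3%. Ly6e and Ly6d had less in common with the others, between 48.3% and 52.2%. Because reads from near copies could be split or dropped by the counting, exact copies were searched for in the principal transcripts. Of the 150-base windows, 5.8% of those of Ly6c2 also occurred in Ly6c1 and 5.6% of those of Ly6c1 in Ly6c2, while Ly6a, Ly6e, Ly6i and Ly6d had 0 such windows. Of the 75-base windows, 21.9% of those of Ly6c2 had a copy in Ly6c1, and 23.2% of those of Ly6c1 had one in Ly6c2 or Ly6a. For Ly6a the share was 2.4%, with copies in Ly6c1 or Ly6i, and for Ly6i it was 0.6%, with copies in Ly6a. Ly6e and Ly6d had 0. Read pairs were of 150 bases at each end, and how reads that match both copies were counted is not given in the sources used here. The counts of Ly6c2 and Ly6c1 are uncertain for that reason, by an amount that was not tested, and the same number of misplaced reads would weigh more on Ly6c2, which had fewer reads than Ly6c1 in every heart.

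RefSeq promoter entries were found for 2 of the 6 genes, Ly6c2 and Ly6c1. They are printed because the RNA of the copies differed between the groups in unlike ways, and cover the 250 bases before the most upstream RefSeq start, 5′ to 3′ on the minus strand (GRCm38.p6), at chr15:75111972-75112221 for Ly6c2 and chr15:75048838-75049087 for Ly6c1. Capitals mark bases that differ, or have no partner, in the stretch that aligns.
Ly6c2 promoter: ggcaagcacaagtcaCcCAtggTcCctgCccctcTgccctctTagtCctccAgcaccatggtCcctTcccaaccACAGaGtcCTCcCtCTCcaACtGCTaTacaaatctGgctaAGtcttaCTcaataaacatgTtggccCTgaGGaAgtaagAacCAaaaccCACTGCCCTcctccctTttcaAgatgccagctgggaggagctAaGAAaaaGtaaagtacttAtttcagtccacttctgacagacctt
Ly6c1 promoter: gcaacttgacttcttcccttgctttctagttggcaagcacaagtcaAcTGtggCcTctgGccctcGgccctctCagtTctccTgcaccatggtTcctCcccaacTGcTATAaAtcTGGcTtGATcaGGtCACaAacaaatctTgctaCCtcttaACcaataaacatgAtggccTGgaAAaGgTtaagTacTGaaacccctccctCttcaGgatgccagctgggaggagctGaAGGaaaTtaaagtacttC
The aligned stretch had 228 columns, and 164 of them (71.9%) were identical, which is less than in the coding sequence. Short motifs were searched on both strands in the 300 bases from 250 before to 50 after the start. The core of the interferon-stimulated response element, GAAANNGAAA, was in 3.44% of all 32851 promoter entries, and the gamma-activated site, TTCNNNGAA, in 8.3%. Ly6c2 and Ly6c1 had 0 matches to either in these windows. AGGAAGT, a core used by ETS factors such as PU.1, was in 9.35% of all entries, with 2 matches in the Ly6c2 window and 0 in the Ly6c1 window. Another RefSeq entry of Ly6c1, with a start further downstream, also held a match. A match is a description and not a site.

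The reads on genes numbered 19398196 to 23645308 in a heart. A normalized count, the unit used throughout, is a gene's reads divided by the size factor of its library. miR-19a/19b mimic replicate 3 stood apart: its chi-square per degree of freedom against the other hearts of its group was 135 and 121, where other pairs of one group gave 10.3 to 26.6, and its summed cardiomyocyte markers were 376000 where the other 5 hearts had between 616500 and 1114000. With limma, 0 of 21126 genes tested passed an adjusted p of 0.05 (Benjamini-Hochberg). At an unadjusted p under 0.05, 555 were lower (2.63% of those tested) and 293 higher. edgeR's quasi-likelihood test called 0 as well, and DESeq2 and edgeR's exact test on the recovered reads called 28 lower genes each, 0.133% of those tested, with 1 and 2 higher. Without miR-19a/19b mimic replicate 3, limma called 164 genes lower and 383 higher, 2.58% of those tested. In bulk tissue, fewer cells of a type and less RNA per cell cannot be told apart.

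Ly6c2, the monocyte copy, was lower in the hearts given miR-19a/19b mimic. Its normalized counts were 818, 748 and 465 in control mimic replicates 1, 2 and 3, against 148.5, 268 and 176 in replicates 1, 2 and 3 of the miR-19a/19b mimic group (all hearts are given in this order). The groups did not overlap: the lowest control heart, replicate 3, was above the highest mimic heart, replicate 2. The means were 677 ± 187 and 198 ± 62.6 (SD, n = 3 each), a ratio of 0.292, and the log2 fold change of miR-19a/19b mimic over control mimic was -1.77 with an SE of 0.26. It was -1.72 without miR-19a/19b mimic replicate 3, the heart that stood apart, and between -2.02 and -1.59 with any 1 heart left out. The groups did not overlap, with the mimic hearts lower, for 2 of the 6 genes (Ly6c2 and Ly6e) and for 5.3% of all genes tested, and with the mimic hearts higher for 0 of the 6 and 3.9% of all. Nothing is read from these shares, since the genes were chosen with this comparison known.

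Ly6c1, the endothelial copy, did not follow Ly6c2. Normalized counts were 3503, 2889 and 2971 in the control mimic hearts and 3534, 4206 and 2693 in the miR-19a/19b mimic hearts. The groups overlapped, since the highest heart (replicate 2) and the lowest (replicate 3) were both mimic hearts. The mean was 3121 ± 333 in the control mimic group and 3478 ± 758 in the miR-19a/19b mimic group (SD, n = 3), with a log2 fold change of 0.14 (SE 0.17). The value rested on single hearts: it was 0.31 without miR-19a/19b mimic replicate 3 and -0.01 without miR-19a/19b mimic replicate 2.

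Ly6a (Sca-1) lay between them. It had normalized counts of 5417, 5416 and 4058 in the control mimic hearts and 3227, 4916 and 3230 in the miR-19a/19b mimic hearts. Mimic replicate 2 was above control replicate 3, so the groups overlapped, while the other mimic hearts were below every control heart. The means were 4964 ± 784 and 3791 ± 974 (SD, n = 3), with a log2 fold change of -0.41 (SE 0.19). It was -0.30 without miR-19a/19b mimic replicate 3 and -0.61 without miR-19a/19b mimic replicate 2.

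Ly6e, the most abundant of the 6 genes in reads, was lower in all mimic hearts. Normalized counts were 12990, 13510 and 11850 in the control mimic hearts, against 7851, 9418 and 10010 in the miR-19a/19b mimic hearts. The groups did not overlap. The mean was 12780 ± 849 in the control mimic group and 9092 ± 1114 in the miR-19a/19b mimic group (SD, n = 3), a log2 fold change of -0.50 (SE 0.14), which was -0.57 without miR-19a/19b mimic replicate 3 and -0.39 without miR-19a/19b mimic replicate 1.

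Ly6i and Ly6d rested on few reads. Ly6i, the myeloid gene next to Ly6a, had normalized counts of 47.5, 32.2 and 14.9 in the control mimic hearts and 4.30, 27.8 and 9.51 in the miR-19a/19b mimic hearts. Control replicate 3 lay below mimic replicate 2, so the groups overlapped. Its log2 fold change of -1.33 had an SE of 0.63 and ranged from -1.98 to -0.76 with 1 heart left out. Ly6d, the lymphoid progenitor gene, had 6.63, 14.6 and 5.61 normalized counts in the control mimic hearts and 8.61, 7.22 and 8.64 in the miR-19a/19b mimic hearts, and its log2 fold change was -0.02 (SE 0.42), which took either sign when 1 heart was left out. No difference in Ly6d was detectable at this depth.

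**Figure D1:**
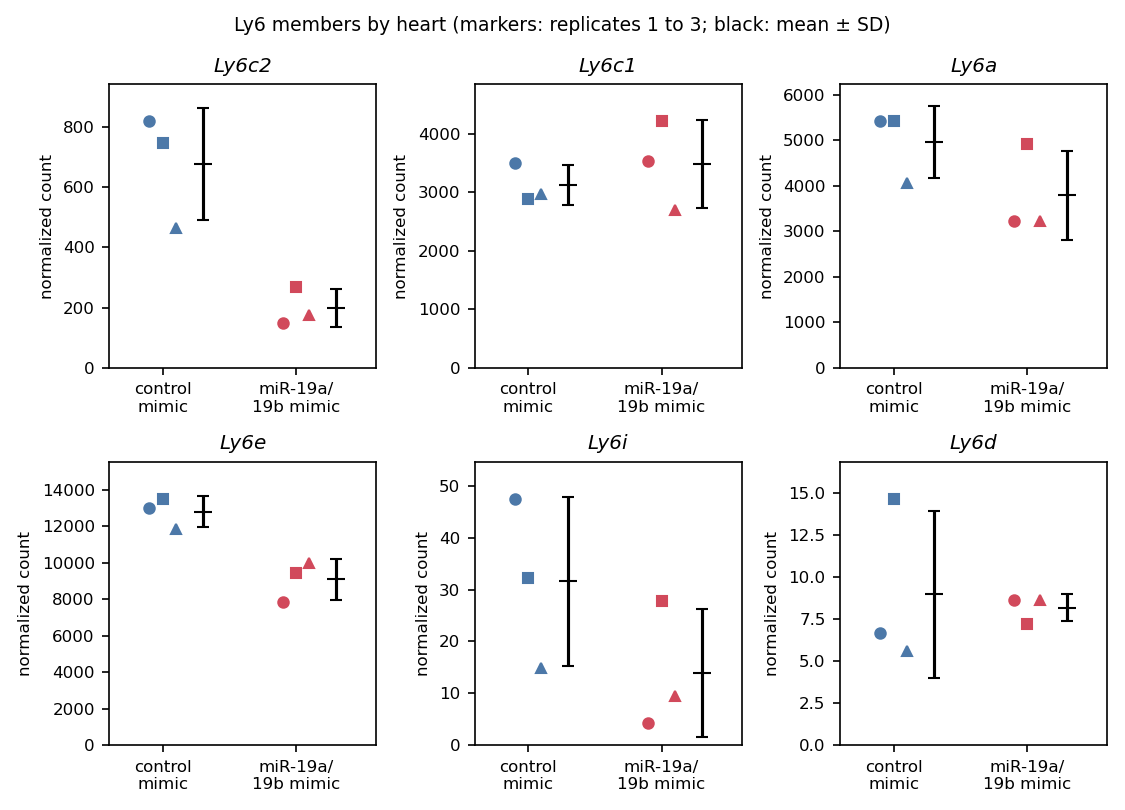
Normalized count of each of the 6 Ly6 genes (y axis, linear from 0, own scale for each gene) in the control mimic hearts (blue) and the miR-19a/19b mimic hearts (red). Circles, squares and triangles are replicates 1, 2 and 3, and the black bars are the mean ± SD (n = 3). The groups do not overlap for Ly6c2 (465 to 818 against 148.5 to 268) and Ly6e (11850 to 13510 against 7851 to 10010), and they overlap for the other 4 genes.

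The monocyte gene Ly6c2 was then set against the endothelial genes Ly6c1 and Ly6a inside each heart, which takes out the scaling of the library. The values are differences of log2(normalized count + 1). Ly6c2 minus Ly6c1 was -2.10, -1.95 and -2.67 in the control mimic hearts and -4.56, -3.97 and -3.93 in the miR-19a/19b mimic hearts. Ly6c2 minus Ly6a was -2.73, -2.86 and -3.12 in the control mimic hearts and -4.43, -4.19 and -4.19 in the miR-19a/19b mimic hearts. In both, the gap between the lowest control heart and the highest mimic heart was wider than the range inside either group. Against the mean of Ly6c1 and Ly6a, Ly6c2 stood at -2.57 ± 0.28 in the control mimic hearts and -4.21 ± 0.25 in the miR-19a/19b mimic hearts (SD, n = 3). The difference of the group means was -1.64, and it lay between -1.80 and -1.50 with any 1 heart left out.

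The reads behind the Ly6C copies give the same picture as a share. Ly6c2 made up 18.9%, 20.6% and 13.5% of the reads on both copies in control mimic replicates 1, 2 and 3. In the first of these hearts, 740 reads were on Ly6c2 and 3169 on Ly6c1. In the miR-19a/19b mimic hearts the share was 4.03%, 5.99% and 6.15%, with 138 Ly6c2 reads beside 3285 of Ly6c1 in the first. The 95% Wilson intervals, which cover counting error only, ran from 12.5% to 14.7% in the lowest control heart and from 5.38% to 7.02% in the highest mimic heart. The group means were 17.7% ± 3.67 and 5.39% ± 1.18 (SD, n = 3).

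The endothelial genes were also compared with each other. Ly6a minus Ly6c1 was 0.63, 0.91 and 0.45 in the control mimic hearts and -0.13, 0.22 and 0.26 in the miR-19a/19b mimic hearts on the log2 scale. Each heart of the mimic group was below each control heart, although neither gene alone separated the groups. The difference of the means was -0.54, smaller than that of Ly6c2 against either gene. Ly6a against Ly6e, in contrast, was alike in both groups, at -1.38 ± 0.15 in the control mimic hearts and -1.28 ± 0.35 in the miR-19a/19b mimic hearts (SD, n = 3).

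**Figure D2:**
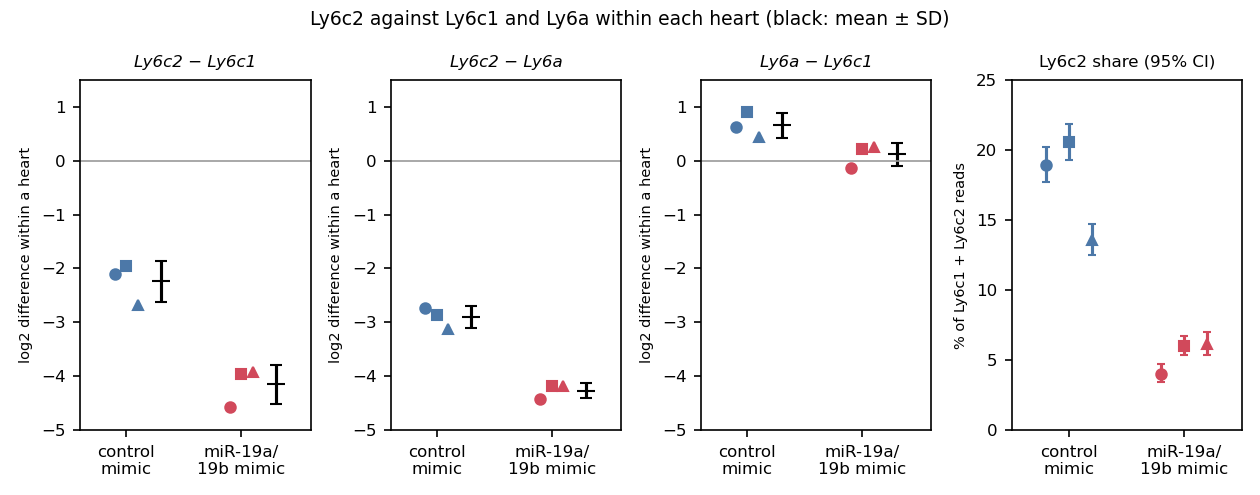
The first 3 panels show, for each heart, the difference of log2(normalized count + 1) between the named genes (y axis), with circles, squares and triangles for replicates 1, 2 and 3 and black bars for the mean ± SD. The right panel shows the percentage of Ly6c1 and Ly6c2 reads that fell on Ly6c2, with 95% Wilson intervals. Blue hearts received control mimic and red hearts miR-19a/19b mimic, and the Ly6c2 share is 13.5% to 20.6% in the control mimic hearts and 4.03% to 6.15% in the others.

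Levels of different genes were compared as normalized counts per kb of length. With the coding length, the order in the control mimic hearts was Ly6e (31330 ± 2081), Ly6a (12350 ± 1951), Ly6c1 (7941 ± 848), Ly6c2 (1722 ± 475), Ly6i (78.5 ± 40.5) and Ly6d (23.5 ± 12.98; SD, n = 3). The hearts of neighbouring genes in this order did not overlap, except that the highest Ly6d heart (38.4) was above the lowest Ly6i heart (37.2). In the miR-19a/19b mimic hearts the order was the same, with Ly6a (9429 ± 2424) and Ly6c1 (8849 ± 1930) within their spread, and so were Ly6i (34.5 ± 30.8) and Ly6d (21.4 ± 2.14). Ly6c1 was 4.84 times as high as Ly6c2 in the control mimic hearts. The gene lengths listed in the files gave a ratio of 7.92 instead, since they give Ly6c2 2740 bases and Ly6c1 1677, and they put Ly6a (4119 ± 651) above Ly6e (3378 ± 224). The order of Ly6e and Ly6a thus depends on the length used.

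Other genes of the Ly6 cluster with a mean of at least 10 did not share the pattern of Ly6c2. The list held 17 names, of which 11 were found and 8 had a mean of at least 1. Of these 8, 7 were higher and 1 lower by sign, 0 passed limma's adjusted p of 0.05 in either direction, 0 had an unadjusted p under 0.05, and DESeq2 and both edgeR tests called 0. The median log2 fold change was 0.14, beside -0.45 for the 6 Ly6 genes and 0.00 for all genes tested. Apart from Gpihbp1, Lynx1 and Them6, the 8 genes had means of 1.18 to 8.07, so the sign count and this median rest largely on few reads. The median was 0.02 with at least 10 in every heart. Gpihbp1, which carries lipoprotein lipase across capillary endothelium, had normalized counts of 2076, 1496 and 1924 in the control mimic hearts and 2134, 2466 and 1653 in the miR-19a/19b mimic hearts (log2 fold change 0.18, SE 0.17). Lynx1, a modulator of nicotinic acetylcholine receptors, had 2687, 2046 and 2624 in the control mimic hearts and 3445, 3073 and 1421 in the others, with the low value in the heart that stood apart. Its log2 fold change was 0.02 (SE 0.30). Them6, a neighbour that is not of the Ly6 fold and overlaps Slurp1 on the other strand, had a log2 fold change of 0.01 (SE 0.13). Ly6g, which encodes the neutrophil antigen next to Ly6c2, was at 3.09 or less in every heart, so no difference was detectable at this depth.

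**Figure D3:**
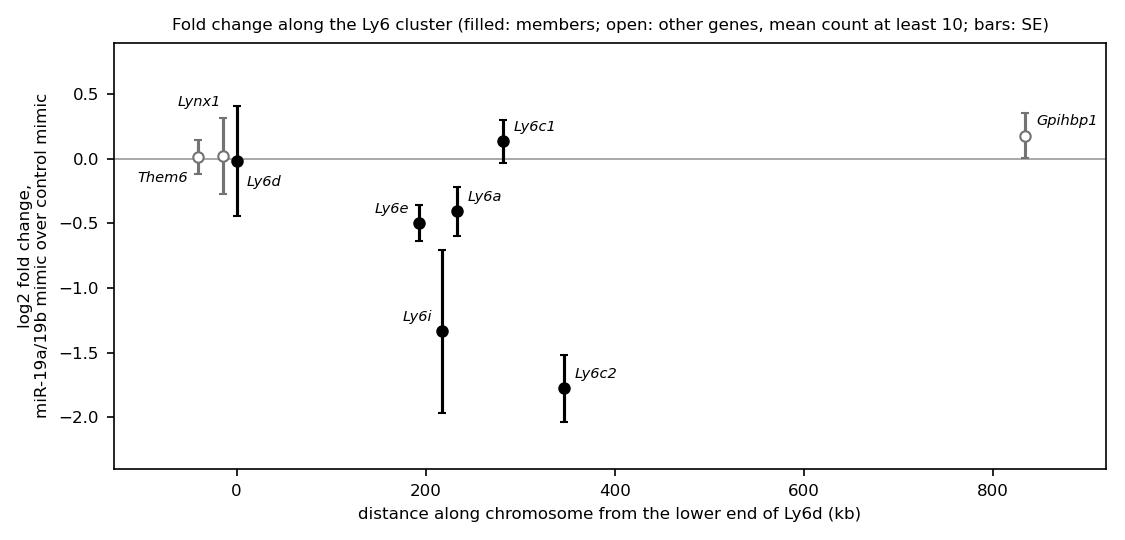
Log2 fold change of miR-19a/19b mimic over control mimic (y axis, bars are the SE) against the distance along the chromosome from Ly6d (x axis, kb). Filled points are the 6 Ly6 genes and open points other genes of the cluster with a mean of at least 10, and Ly6c2, at -1.77, lies below Ly6c1, its neighbour at 0.14.

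Genes with the same fold outside the cluster were mixed by sign. Of 20 listed, 10 had a mean of at least 1, and 5 were lower and 5 higher by sign. Limma's adjusted p was passed by 0, and 2 were lower at an unadjusted p under 0.05, beside 2.63% of all genes tested. The groups did not overlap, with the mimic hearts lower, for 3 of the 10 (30%, beside 5.3% of all genes tested). With the mimic hearts higher it was 0, beside 3.9% of all. Lypd6 was among these 3, and the others had means under 10. Plaur, the urokinase receptor, had normalized counts of 779, 526 and 674 in the control mimic hearts and 492, 839 and 940 in the miR-19a/19b mimic hearts, and Cd59a, a complement regulator, had a log2 fold change of 0.11 (SE 0.24). Cd59b had a log2 fold change of 0.01 (SE 0.33), Lypd8 one of 0.77 (SE 0.80), and Cd177, a neutrophil surface protein, one of -0.55 (SE 0.26). Lypd6 had the lowest value of the genes with a mean of at least 10, -0.80 (SE 0.34), and it did not pass limma's adjusted p.

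Cell type markers and interferon-stimulated genes were set beside the Ly6 genes, since Ly6c2 marks monocytes and Ly6a and Ly6e respond to interferon. Interferon-stimulated genes moved with Ly6c2. All 30 were lower by sign with a median log2 fold change of -0.64, and the groups did not overlap for 28 of them (93.3%, beside 5.3% of all genes tested). Their summed normalized counts were between 38550 and 47460 in the control mimic hearts and between 21070 and 30220 in the miR-19a/19b mimic hearts. Limma's adjusted p was passed by 0 of them and an unadjusted p under 0.05 by 28, where 2.63% of all genes tested were lower at that p. DESeq2 and edgeR's exact test called 4 each, beside 0.133% of all genes tested called lower by each test. Without miR-19a/19b mimic replicate 3, limma called 20, in a fit that called 2.58% of all genes. The list was written with earlier results of these data known.

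Ifi44, an interferon-induced protein of the antiviral response, had 648, 738 and 640 normalized counts in the control mimic hearts and 230, 402 and 282 in the miR-19a/19b mimic hearts (log2 fold change -1.18, SE 0.19, adjusted p 0.396 in limma). Ifit1, which binds viral RNA, had 1168, 1442 and 965 in the control mimic hearts and 407, 687 and 655 in the others (log2 fold change -1.05). Irf7, a transcription factor that drives interferon genes, had a log2 fold change of -0.73 and Bst2 (tetherin) one of -0.62, and these were the most abundant genes of the list. Zbp1, a nucleic acid sensor, was at -0.99 and Oas3, an RNA-sensing synthetase, at -0.93. Ly6c2 was lower than this list: Ly6c2 minus the mean of the interferon-stimulated genes on the log2 scale was -0.74 ± 0.39 in the control mimic hearts and -1.82 ± 0.26 in the miR-19a/19b mimic hearts (SD, n = 3), without overlap. Ly6e minus the same mean was 3.54 ± 0.11 and 3.74 ± 0.16, and Ly6a minus it 2.17 ± 0.19 and 2.45 ± 0.29, both with overlap. The part of interferon signaling in the Ly6 values was not tested.

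Monocyte and macrophage markers differed among themselves. Of 20, 16 were lower and 4 higher by sign, with a median log2 fold change of -0.22, 0 called by limma, 4 lower and 1 higher at an unadjusted p under 0.05, and 2 called by DESeq2 and by edgeR's exact test. Over all genes tested, 2.63% were lower at an unadjusted p under 0.05 and 0.133% were called lower by DESeq2. At that unadjusted p, 293 of 21126 genes were higher. Limma called 6 once miR-19a/19b mimic replicate 3 was left out, a fit in which it called 2.58% of all genes. Their summed normalized counts overlapped, between 78490 and 89340 in the control mimic hearts and between 63190 and 95780 in the miR-19a/19b mimic hearts, and none of the 20 was at 0. Genes of blood monocytes were not alike: the log2 fold change was lowest for Ms4a4c, Plac8 and Ccr2, while it was -0.37 (SE 0.15) for Ms4a6c, -0.35 (SE 0.24) for Chil3, -0.19 (SE 0.10) for Vcan and 0.16 (SE 0.12) for F13a1. Ms4a4c, a membrane protein of monocytes, had 895, 899 and 821 normalized counts in the control mimic hearts and 307, 521 and 481 in the miR-19a/19b mimic hearts (log2 fold change -1.03, SE 0.19, adjusted p 0.522 in limma). Plac8 had 1720, 1793 and 1273 against 652, 960 and 931 (log2 fold change -0.92, SE 0.18). Ccr2, the chemokine receptor by which Ly6C-high monocytes leave the marrow, had 2525, 2652 and 2079 against 1489, 1593 and 1942 (log2 fold change -0.53, SE 0.14).

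The groups did not overlap, with the mimic hearts lower, for 4 of the 20 markers (20%, beside 5.3% of all genes tested). That share was not particular to this list. It was 33.3% for T cell markers (4 of 12), 40% for erythrocyte markers (2 of 5) and 16.7% for neutrophil markers (2 of 12). For fibroblast markers it was 7.69% (1 of 13), and it was 0 for B cell, cardiomyocyte and endothelial markers. The 4 monocyte and macrophage markers were Ms4a4c, Plac8, Ccr2 and Vcan, while the groups overlapped for Ms4a6c, Chil3 and F13a1. Cd163, a scavenger receptor of resident macrophages, was in the other direction, with 851, 579 and 991 in the control mimic hearts and 1445, 1238 and 972 in the miR-19a/19b mimic hearts (log2 fold change 0.61, SE 0.21). The abundant genes that monocytes share with macrophages overlapped between the groups: Lyz2 had a log2 fold change of -0.06 (SE 0.23) and Csf1r one of -0.26 (SE 0.16). Ly6c2 minus the mean of all 20 markers was -1.73 ± 0.42 in the control mimic hearts and -3.28 ± 0.47 in the miR-19a/19b mimic hearts (SD, n = 3), without overlap. The part of monocyte number in the Ly6c2 values was not tested.

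Endothelial markers stayed near 0, as Ly6c1 did. Of 20, 9 were lower and 11 higher by sign, with a median log2 fold change of 0.01. With all hearts, limma, DESeq2 and edgeR's tests called 0. At an unadjusted p under 0.05 in limma, 1 was higher and 0 lower, beside 293 higher of all 21126 genes tested. Limma called 2 without miR-19a/19b mimic replicate 3, a fit in which it called 2.58% of all genes. The gene at an unadjusted p under 0.05 with all hearts was Sox17, a transcription factor of arterial endothelium, with 1018, 1044 and 1015 normalized counts in the control mimic hearts and 1307, 1342 and 1475 in the miR-19a/19b mimic hearts (log2 fold change 0.42, SE 0.09, adjusted p 0.791 in limma). The summed normalized counts were 61730 to 78800 in the control mimic hearts and 66400 to 77440 in the miR-19a/19b mimic hearts. Cdh5, the junction protein VE-cadherin, had a log2 fold change of 0.00 (SE 0.15) and Fabp4, a fatty acid binding protein of capillaries, one of 0.20 (SE 0.23). Ly6c1 minus the mean of the endothelial markers was 0.36 ± 0.02 and 0.43 ± 0.23 in the control and miR-19a/19b mimic hearts (SD, n = 3), with overlap. Ly6a minus the same mean was 1.02 ± 0.21 and 0.55 ± 0.27, and those values overlapped too, by the mimic replicate 2 heart.

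Markers of other cells were described in the same way, with 0 genes of these lists called by any test with all hearts. T cell markers, on few reads, had summed normalized counts of 350 to 484 in the control mimic hearts and 309 to 324 in the miR-19a/19b mimic hearts, with a median log2 fold change of -0.47 and 3 of 12 lower at an unadjusted p under 0.05 (Cd8a, Lck and Trac), beside 2.63% of all genes tested. Neutrophil markers had a median of -0.46 and sums of 2554 to 3297 and 1373 to 4074, which overlapped, and the highest sum was in miR-19a/19b mimic replicate 3. That median was -0.14 without miR-19a/19b mimic replicate 1 and -0.77 without miR-19a/19b mimic replicate 3. Retnlg, a neutrophil gene on few reads, had a log2 fold change of -1.52 (SE 0.61) at an unadjusted p under 0.05. B cell markers had a median of -0.23, fibroblast markers one of -0.01, cardiomyocyte markers one of 0.15 and erythrocyte markers one of -0.46, and the sums of all 4 lists overlapped between the groups. These medians rested on single hearts. Without miR-19a/19b mimic replicate 3 they were -0.33, -0.12, 0.72 and -0.16 in the same order. In that fit limma called 5 of the 12 cardiomyocyte markers, 2 of the 12 neutrophil markers and 2 of the 13 fibroblast markers, beside 2.58% of all genes. It called 0 of the T cell, B cell and erythrocyte markers. With any 1 heart left out the 4 medians ran from -0.33 to -0.11, from -0.12 to 0.02, from -0.12 to 0.72 and from -0.62 to -0.16, and the cardiomyocyte median was below 0 without miR-19a/19b mimic replicate 1 or 2. Hba-a2 and Hbb-bt, globin genes with close copies, were lower at an unadjusted p under 0.05, with means of 166.7 and 81.8 normalized counts for Hba-a2 and of 236 and 157 for Hbb-bt in the control and miR-19a/19b mimic hearts. The part of these cells in the Ly6 values was not tested.

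**Figure D4:**
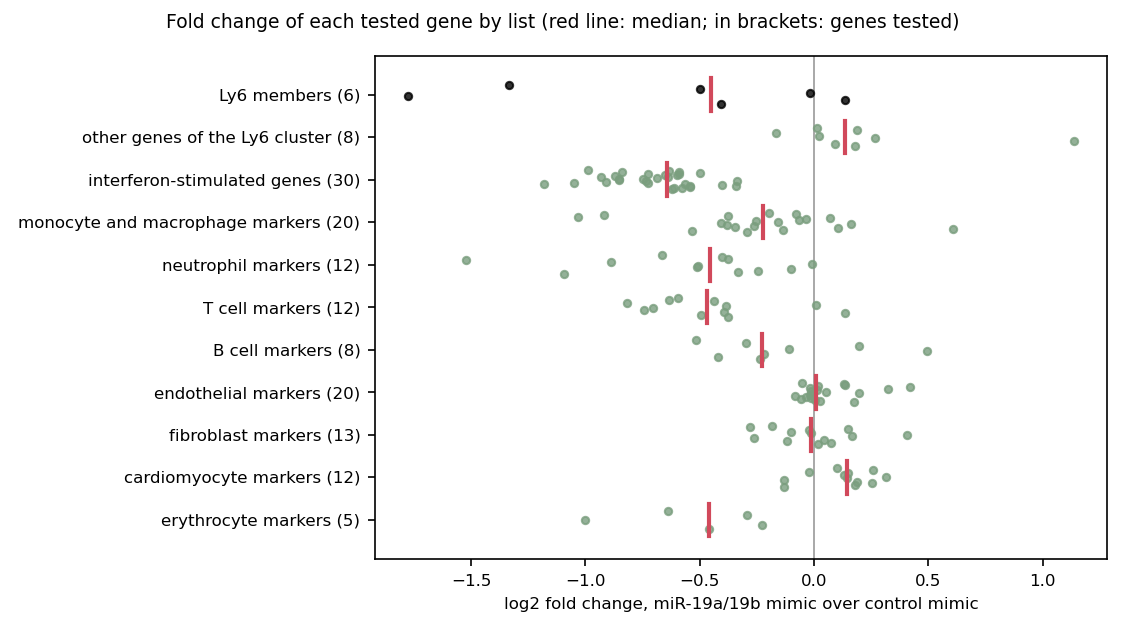
Log2 fold change of miR-19a/19b mimic over control mimic (x axis) for each tested gene of each list (rows), with the median as a red line and the number of tested genes in brackets. Interferon-stimulated genes all lie below 0 (median -0.64), endothelial markers centre on 0 (median 0.01), and the Ly6 genes (black) run from -1.77 to 0.14.

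The genes whose values over the 6 hearts were most like those of each Ly6 gene were found by Pearson's r on log2(normalized count + 1), among 11608 genes (11609 for Ly6i) with a mean of at least 100. These values share their libraries and the group difference, and with 6 hearts many genes reach a high r, so they are a description. For Ly6c2 the nearest were Irgm2 (r = 0.992), Igtp (0.984), Irgm1 (0.981), B2m (0.98) and Oas1g (0.978). The first 3 are immunity-related GTPases, B2m is the light chain of MHC class I and Oas1g an oligoadenylate synthetase, and 100 genes had an r over 0.9. For Ly6e they were Tap1 (0.996), the peptide transporter of MHC class I, Bcl6 (0.994), Plac8 (0.987), Ifit1 (0.987) and Cmpk2 (0.983). Plac8 is on the monocyte list and Ifit1 and Cmpk2 on the interferon list. For Ly6a they were Ddx28 (0.976), Arsk (0.963), AW112010 (0.962), Gbp4 (0.957) and Klra2 (0.954), and for Ly6i Gbp4 (0.978), Wdr75 (0.968), Pprc1 (0.967), Casp4 (0.965) and Atg12 (0.964).

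For Ly6c1 the nearest genes were Dnajc11 (0.997), Nudt2 (0.985), Trim13 (0.983), Nt5c3b (0.979) and Chrac1 (0.978), and none of them is on a list used here. After each group's mean was subtracted, so that only the spread among hearts of one group counted, the gene nearest to Ly6c2 was Gbp4 (0.996), followed by Arl6, Mettl1, Ccdc59 and Klra2 (0.985 to 0.98). The gene nearest to Ly6a was then Irgm2 (0.995), with Use1, Psmd14, Usp16 and Rsl1d1 after it. Rpl6, Stk16, Dnase1l1 and Zfp53 were among the genes nearest to Ly6e, and Ly6i was nearest to Wdr75, Srp14, Crem, Gpr4 and Klra2, and Ly6c1 to Dnajc11, Nudt2, Nmd3, Uck1 and Zfp317. Of the genes on the lists used here, none was among these within-group neighbours.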

How the data were processed

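Ventricular poly(A) RNA of 6 hearts was sequenced as 150-bp read pairs. The submitters' processing notes name STAR 2.5.1b, HTSeq 0.6.0, DESeq2 1.10.1 and mm9. The listed coordinates are instead those of GRCm38 (82.7% of the 25884 identifiers found in GENCODE M21 have the same start and end, the 6 Ly6 genes included). The deposited signal is the authors' normalized count, each gene's reads divided by a size factor, and the deposited gene length is another column of the file. The authors' own fold changes and p-values were not used. In every library 100% of values were whole multiples (tolerance 0.01) of what 1 read is worth, which gave back the read counts. A multiread or strand setting of the counting is not given in the sources used here.

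Groups came from the labels. Limma 3.58.1 (R 4.3.3), with a trended prior, was fitted on log2(normalized count + 1) over the genes whose mean reached 1 (21126 of 26012), with Benjamini-Hochberg adjustment, because the files hold normalized values. A fold change on that scale understates the change of low genes. Checked on simulated reads of 3 against 3 hearts with 15550 genes, limma recovered 121 of 200 genes changed 2-fold and called 3 unchanged genes. The alternatives were edgeR 4.0.16 and DESeq2 1.42.0 on recovered reads, no filter, a minimum of 10 per heart, the replicate block, a pseudocount of 0.1, each heart left out, and coding against listed gene length.

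The members and gene lists were chosen with earlier results of these data known. Named genes are all 6 members, other Ly6 cluster and Ly6/uPAR-fold genes with a mean of at least 10, in each other list up to 4 genes with the largest fold change at an unadjusted p under 0.05 plus the 2 most abundant, and the 5 genes most like each member. Ly6g, Slurp1, Ms4a6c, Chil3, Vcan and F13a1 are named outside this rule, after their values were seen, and some items that the rule names are not reported here. Intervals cover counting error only, since reads carry no molecular identifiers. The hearts are biological replicates, 3 per group.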

Additional observations from a re-analysis of the deposited data

How the results depend on the processing

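The number of genes called at an adjusted p of 0.05 was 0 lower and 0 higher by limma, and it stayed at 0 with no filter, at least 10 in every heart, a pseudocount of 0.1 and edgeR's quasi-likelihood test. DESeq2 called 28 lower and 1 higher, and edgeR's exact test 28 lower and 2 higher. With 1 heart left out the counts ran from 0 to 164 lower and from 0 to 383 higher, both highest without miR-19a/19b mimic replicate 3. Of the interferon-stimulated genes, DESeq2 and the exact test called 4, and leaving out 1 heart gave 0 to 20. Of the monocyte and macrophage markers these tests called 2, with 0 to 6 when 1 heart was left out, and of the endothelial markers leaving out 1 heart gave 0 to 2, each highest without the same heart. The cause was not tested. The ratio of Ly6c1 over Ly6c2 per kb was 4.84 with the coding length instead of 7.92, and that of Ly6e over Ly6a was 2.57 instead of 0.829, because the lengths differ.

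Ly6c2, Ly6a and Ly6e kept a negative log2 fold change in all 13 alternatives and Ly6i in all 12 that gave it a value. Ly6c1 changed sign in 1 of 13, Ly6d in 2 of 12. The changes of filter and the replicate block cannot move a gene's log2 fold change, so those alternatives could not have changed a sign. The deviations of same-numbered hearts from their group means correlated at -0.008, -0.021 and -0.115, and those of other pairs at -0.103 to 0.116. With 3 hearts per group, these values cannot settle whether the replicate numbers pair the hearts. The replicate block called 0 genes lower and 0 higher and changed no other count of calls. The difference of Ly6c2 against Ly6c1 and Ly6a was -1.64 with it, a value that a block with each number once per group cannot change. Depth limits Ly6d, Ly6i and Ly6g, where 3 reads correspond to normalized counts of 2.59 to 3.32.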
